A study of Mus musculus with 2 samples.

Results

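Lymphatic endothelial cells line the vessels that drain fluid, lipid and migrating immune cells from the gut wall. In the colonic stroma studied here they were a rare population: 88 of 19463 kept cells, 46 of 11050 in the control library and 42 of 8413 in the Cre library. A cell counted as one where at least 3 of the genes Lyve1, Prox1, Mmrn1, Flt4, Reln and Cdh5 had a UMI (a uniquely tagged transcript), Prox1, Mmrn1 or Flt4 among them. Prox1 encodes the transcription factor that sets lymphatic fate, Flt4 the receptor VEGFR3 for lymphatic growth factors, Lyve1 a hyaluronan receptor, Mmrn1 and Reln secreted matrix proteins and Cdh5 the adherens junction protein VE-cadherin.

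The control library came from Il10ra ff mice, which carry loxP-flanked alleles of the interleukin 10 receptor gene Il10ra. The Cre library came from Il10ra ff; Pdgfra-cre mice, so mice of both genotypes carried the floxed alleles and only the second also carried a Cre recombinase driven by the Pdgfra promoter, which is active in fibroblasts. Each genotype gave 1 library from the whole colons of 2 mice of 6 months, and the cells of the 2 mice could not be told apart. The sort had taken live podoplanin-positive cells that lacked CD45, EpCAM and CD31, and a 10x Genomics 5' kit captured them. Podoplanin is made by lymphatic endothelium and by fibroblasts, whereas CD31, the product of Pecam1, is an endothelial surface protein, so that gate could set which and how many lymphatic cells were captured. Il10ra had no UMI in the 46 control or the 42 Cre members, and the targeted gene could therefore not be checked in them.

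With 1 library per genotype no difference between genotypes could be tested against biological spread. Levels are given as CPM, the usual depth-scaled count, taken from the UMIs summed over a group of cells. Intervals in parentheses are exact 95% intervals that cover counting error only, because cells of 1 library are not replicates. A difference between the libraries cannot be told apart from one between their mice, sorts or captures.

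In lymphatic vessels, blind-ended capillaries take up fluid and draw in dendritic cells and T cells through the chemokine CCL21, and collecting vessels with valves carry the lymph on to lymph nodes. Lymphatic endothelial cells can also present antigen: MHC class I molecules load peptides made by the proteasome and carried by the TAP transporter, and MHC class II molecules, with their invariant chain CD74, are made when interferon gamma induces the coactivator CIITA. Class II promoters, and many class I promoters, carry a CCAAT-containing Y box, while genes induced by type I interferon carry interferon-stimulated response elements.

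The members made up 0.416% (0.305 to 0.555) of kept control cells and 0.499% (0.360 to 0.674) of kept Cre cells, and these intervals overlapped. All 6 markers were detected in 13 control and 17 Cre members, 5 markers in 20 and 15, 4 in 11 and 8, and exactly 3 in 2 and 2. The members with 3 markers held 910 to 1496 UMIs in the control and 659 to 12701 in the Cre library. Just outside the rule lay 2 control cells and 5 Cre cells with 2 markers, Prox1, Mmrn1 or Flt4 among them. Members were shallow: the lowest, median and highest totals were 700, 2030 and 16484 UMIs in the control and 659, 2349.5 and 12701 in the Cre library, against medians of 6633 and 7457 UMIs over all kept cells.

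Some members also carried the transcripts of other cell types. In 13 of them, 11 control and 2 Cre cells, UMIs of a fibroblast list (15 genes, such as Dcn and Col1a1) or a smooth muscle list outnumbered those of a pan-endothelial list of 40 genes. These 13 cells had median totals of 9930 and 9522 UMIs and held 60.5% of all member UMIs in the control but 16.5% in the Cre library. The other 35 control and 40 Cre members, called endothelial-led here, made up 0.317% (0.221 to 0.440) and 0.475% (0.340 to 0.647) of kept cells. Their pan-endothelial UMIs per cell had lowest, median and highest values of 4, 23 and 74 in the control and 5, 30.5 and 81 in the Cre library, against a median of 1 fibroblast-list UMI in both. A doublet caller marked 5 of the 46 and 1 of the 42 members. Because the mixed cells fell mostly in 1 library, counts of genes are given over all members and over the endothelial-led members. Levels against other cells are those of endothelial-led members unless all members are named, with leading genes over all members beside them, and library ratios over all members are added where they differ by over 1.5 times. This division was added after the data had been seen.

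**Figure D1:**
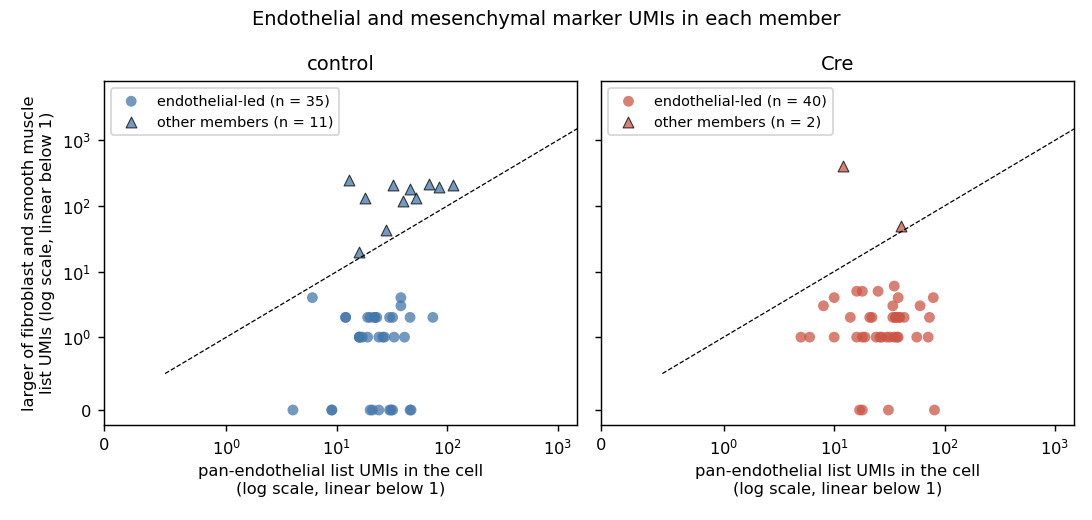
Each point is a member cell: UMIs of the pan-endothelial list (horizontal) against the larger of its fibroblast-list and smooth-muscle-list UMIs (vertical), on log axes that are linear below 1, with a dashed line of equality. The 35 control and 40 Cre endothelial-led members lie below the line and the 11 and 2 other members (triangles) above it.

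Markers of further cell types were near 0 in the endothelial-led members. Of 17 leukocyte genes, Ptprc (CD45) and all others had 0 UMIs in the control and only Igkc had 1 UMI in the Cre library, and red cell globin genes had 0 in both. Epcam had 0 UMIs in both libraries. Of 9 mesothelial genes only Gpm6a, which was also on the lymphatic identity list, had UMIs (35 and 39). Dcn, the proteoglycan gene of fibroblasts, stood at 257 and 383 CPM, or 0.0271 and 0.0313 times its level in other kept cells, and Col3a1 (type III collagen) at 30.3 and 10.3 CPM against 2768 and 1642 CPM. All 15 fibroblast genes were at least 4-fold lower in both libraries, against 3 of 15 over all members, where Dcn stood at 3252 and 2438 CPM. The part of free RNA in these levels was not tested.

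The lymphatic label was checked against genes that the rule had not used. Because the rule selected cells on correlated genes, the comparison with other kept cells is a description and carries no test. Over all members, 246 of 3456 measured genes (7.12%) exceeded the other kept cells 4-fold or more in both libraries, and 22 (0.637%) lay 4-fold or more below them. Over the endothelial-led members the counts were 285 (13.3%) and 232 (10.9%) of 2137. A gene was measured here with at least 20 UMIs observed in the members, or expected from the other cells, and 10 CPM was added before taking ratios.

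Of the lymphatic identity list, 21 of 26 measured genes were 4-fold higher over all members and 22 of 25 over the endothelial-led members, and none was lower. The largest difference was in Ccl21a, the chemokine that draws CCR7-bearing cells into lymphatics. In endothelial-led members it reached 21700 CPM (control) and 30793 CPM (Cre), against 0.958 and 2.05 CPM in other kept cells. It had a UMI in 94.3% and 97.5% of these cells but in 0.445% and 0.743% of the far deeper fibroblasts. Nrp2, a co-receptor for lymphatic growth factors, stood at 984 and 704 CPM against 130 and 134 CPM. Sox18, a transcription factor that acts upstream of Prox1, stood at 469 and 455 CPM against 0.0656 and 0.0903 CPM. Fgl2, a fibrinogen-like secreted protein, stood at 3089 and 3363 CPM against 142 and 146 CPM. Tbx1, a T-box factor of lymphatic development, was at 333 and 321 CPM. Over all members Ccl21a stood at 10863 and 27280 CPM, Nrp2 at 647 and 605 CPM, Sox18 at 293 and 389 CPM and Fgl2 at 1886 and 2939 CPM, each still at least 4-fold higher.

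Genes of capillary and of collecting vessels were not represented alike. Of the capillary list, 6 of 8 measured genes over all members and 5 of 7 over endothelial-led members were 4-fold higher, among them Ackr2, a decoy receptor for inflammatory chemokines (212 and 341 CPM in endothelial-led members), and the mechanosensitive channel gene Piezo2 (757 and 569 CPM). Of the collecting and valve list, 2 of 11 and 3 of 9 were higher, and 0 of 11 and 2 of 9 were 4-fold lower. The cells had been chosen by markers such as Lyve1 and Reln, so this contrast is a description of the chosen cells. How far the rule favoured capillary cells was not tested. Foxc2, the transcription factor of valve cells, had 1 and 2 UMIs in endothelial-led members and 4 and 2 over all, too few to describe. Itga9, the integrin subunit of valve leaflets, was among the higher genes.

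Pan-endothelial genes were 4-fold higher for 23 of 31 measured genes over all members and 24 of 29 over endothelial-led members, and in the latter only Cd34 was lower. Cldn5, the tight junction claudin of endothelium, stood at 1015 and 807 CPM in endothelial-led members against 0.0525 and 0.12 CPM elsewhere. Kdr, which encodes VEGFR2, stood at 560 and 890 CPM, and Egfl7, a secreted endothelial matrix protein, at 591 and 662 CPM. Pecam1, whose protein the sort selected against, was present as mRNA at 560 and 497 CPM and in 54.3% and 72.5% of endothelial-led members, against 4.01% and 4.42% of fibroblasts. Pdpn, whose protein the sort required, was at 363 and 300 CPM against 228 and 246 CPM in other kept cells. Over all members Cldn5 stood at 497 and 700 CPM, Kdr at 305 and 752 CPM and Pecam1 at 335 and 424 CPM.

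Of the blood endothelial list, 6 of 7 measured genes over all members and 5 of 6 over endothelial-led members were 4-fold higher. The 5 were Gpihbp1, Emcn, Lrg1, Apold1 and Hey1. Emcn, the sialomucin endomucin, stood at 545 and 548 CPM in endothelial-led members, and Gpihbp1, which anchors lipoprotein lipase, at 273 and 362 CPM. Flt1 and Vwf, which encode VEGFR1 and von Willebrand factor of blood vessels, and the capillary gene Aplnr had 0 UMIs in the endothelial-led members, and over all members only Vwf had 1 UMI, in the control. Over all members Emcn stood at 299 and 467 CPM.

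**Figure D2:**
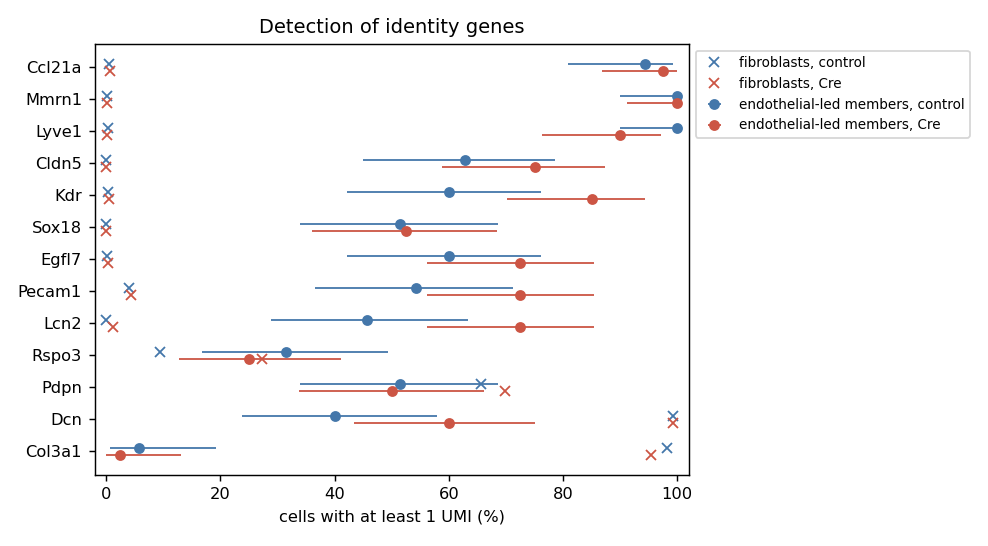
Share of cells with at least 1 UMI (%, horizontal) for 13 genes in endothelial-led members (circles with exact 95% binomial intervals) and in fibroblasts (crosses), by library. Ccl21a was detected in 94.3% and 97.5% of endothelial-led members and in under 1% of fibroblasts, and Col3a1 showed the opposite order.

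Several growth factor receptor genes were prominent, though not Flt1, and the ligand genes named here had few or no UMIs. Of the vascular growth factor, angiopoietin and adrenomedullin list, 3 of 9 measured genes over all members and 4 of 8 over endothelial-led members were 4-fold higher: Kdr, Nrp2, Ramp2 and the orphan receptor gene Tie1 in the latter. Ramp2, which pairs with the receptor Calcrl to bind adrenomedullin, stood at 833 and 973 CPM against 145 and 123 CPM, but over all members at 527 and 873 CPM, below 4-fold in the control. Ligand genes were at or near 0: Adm, which encodes adrenomedullin, stood at 0 and 10.3 CPM against 56.8 and 58.4 CPM, and Vegfa at 0 and 10.3 CPM against 79.6 and 50.9 CPM. Vegfc and Vegfd, the VEGFR3 ligands, had no UMI in the endothelial-led members and 3 UMIs or fewer per library over all members. A count of 0 allows up to 45.4 CPM in control and 31.0 CPM in Cre endothelial-led members. Fibroblasts stood at 26.5 and 34.2 CPM for Vegfc and 27.7 and 52.8 CPM for Vegfd, so the control counts cannot place the members below fibroblasts. In the Cre library the exact upper limits were 38.2 CPM for both genes in endothelial-led members. Over all Cre members they were 31.9 CPM for Vegfc and 62.4 CPM for Vegfd. These limits lay above the fibroblast level for Vegfc in the former set and for Vegfd in the latter. Among Notch and ephrin genes, 5 of 8 and 6 of 7 were higher, with the receptor gene Notch1 at 681 and 569 CPM and its ligand gene Dll4 at 212 and 259 CPM in endothelial-led members.

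Genes that steer leukocytes were divided. Of the trafficking list 8 of 20 measured genes over all members and 7 of 17 over endothelial-led members were 4-fold higher. Beside Ccl21a they included S1pr1, a receptor for sphingosine 1-phosphate (409 and 238 CPM), and Spns2, the transporter that exports this lipid (167 and 248 CPM). Il7, the T cell survival cytokine, stood at 197 and 186 CPM against 16.2 and 17.8 CPM. The chemokine gene Cxcl12 was at 197 and 145 CPM against 1124 and 1409 CPM. The inflammatory chemokine genes Cxcl10 and Ccl7 had no UMI in endothelial-led members of either library, against 109 and 457 CPM and 201 and 551 CPM in other kept cells. Over all members Cxcl10 had 3 and 38 UMIs and Ccl7 0 and 47, the Cre UMIs of each in 2.38% of members, or 1 cell. Cxcl12 stood at 413 and 182 CPM and Il7 at 132 and 156 CPM over all members.

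Of the stem cell niche list none of 13 measured genes over all members was 4-fold higher or 4-fold lower in both libraries. In the endothelial-led members 0 of 9 were higher and 7 were 4-fold lower, the bone morphogenetic protein gene Bmp4 and its antagonist gene Grem1 with no UMI. Rspo3, an R-spondin that strengthens Wnt signals in crypt stem cells, was not among the lower genes. It stood at 227 and 186 CPM in the endothelial-led members, against 19.98 and 60.1 CPM in other kept cells. In fibroblasts its level was 19.9 and 61.0 CPM, and the excess in lymphatic cells was 11.4-fold (6.35 to 18.8) in the control and 3.10-fold (1.83 to 4.90) in the Cre library over other kept cells. Over all members Rspo3 stood at 114 and 182 CPM, an excess of 5.69-fold (3.42 to 8.92) and 3.02-fold (1.87 to 4.62) with intervals that overlapped.

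Uptake genes were in part higher, and matrix genes were divided. Of the endothelial matrix and basement membrane list, 2 of 26 measured genes over all members were 4-fold higher and 0 were 4-fold lower. Over endothelial-led members 3 of 24 were 4-fold higher and 7 were 4-fold lower. Of the scavenging and lipid list 7 of 16 measured genes over all members and 7 of 15 over endothelial-led members were 4-fold higher, among them the scavenger receptor gene Stab1 (394 and 476 CPM in endothelial-led members), the caveolar gene Cavin2 (2211 and 2670 CPM) and the water channel gene Aqp1 (485 and 683 CPM). Timp3, an inhibitor of matrix proteases, stood at 3195 and 4211 CPM against 779 and 478 CPM, but over all members at 2527 and 3596 CPM, below 4-fold in the control. Among the 20 highest genes by the smaller of both ratios were also Galnt18, a glycosyltransferase gene (1651 and 1097 CPM in endothelial-led members), the adhesion receptor gene Adgrg3 (530 and 704 CPM) and Podxl, which encodes the sialomucin podocalyxin (697 and 476 CPM). Dissociation-stress genes were not higher: 0 of 26 measured genes were 4-fold higher in either set of members, and Fos stood at 999 and 1966 CPM in endothelial-led members against 6547 and 5895 CPM elsewhere, and over all members at 3677 and 2239 CPM.

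Among the genes higher in the Cre library, the MHC class II genes Cd74 and H2-Eb1 ranked first and second by ratio in both sets of members. Cd74, the invariant chain, had 0 UMIs in the 46 control members and 62 UMIs (536 CPM) in the 42 Cre members. In endothelial-led members it had 0 and 55 UMIs. This put it 12.5-fold higher in the Cre library when the control was set at the 3 UMIs that a count of 0 allows. That value leaves out the counting error of the Cre UMIs, so it is not a lower limit like those of the intervals below. H2-Eb1, a class II beta chain, had 1 and 36 UMIs, a 24.6-fold ratio (4.14 to 998), and H2-Ab1, another beta chain, 2 and 31 UMIs, a 10.6-fold ratio (2.69 to 91.3). Over all members these ratios were 54.9 (9.27 to 2223) and 26.0 (6.69 to 223). H2-Aa, an alpha chain, had 1 and 14 UMIs in endothelial-led members and 1 and 19 over all. All 4 genes were low in every control set and higher in the Cre library. Over all genes, 139 of 3035 measured in members (4.58%) were at least 2-fold higher in the Cre library and 239 (7.87%) at least 2-fold lower. In endothelial-led members these were 85 (4.99%) and 91 (5.34%) of 1705. A gene was measured here with at least 20 UMIs over both libraries, in at least 5 cells. These are counts by size: near that minimum counting error alone can carry a gene past 2-fold. Of the class II list 4 of 4 measured genes were higher over all members and 3 of 3 in endothelial-led members, with median log2 ratios of 4.14 and 3.93 against -0.01 for all measured genes in both sets.

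Class II transcripts were spread over many Cre members. A UMI of any of the 4 genes was present in 4 of 46 control members (8.70%, 2.42 to 20.8) and in 22 of 42 Cre members (52.4%, 36.4 to 68.0). In endothelial-led members it was 4 of 35 and 21 of 40. UMIs of at least 2 of the 4 genes were seen in 0 of 46 control members, which by a limit of 3 cells allows up to 6.52% of cells with such UMIs, not of cells expressing the genes, and in 17 of 42 Cre members (40.5%, 25.6 to 56.7). Fibroblasts, which were deeper (medians of 6645 and 7617 UMIs), had such a UMI of any of the 4 genes in 8.52% and 18.9% of cells. With every cell thinned to 1000 UMIs, 1 of 41 control and 17 of 39 Cre members kept a class II UMI, 2.44% (0.0617 to 12.9) and 43.6% (27.8 to 60.4), against 1.46% and 4.81% of fibroblasts. Mesothelium and glia of the Cre library had a class II UMI in 66.7% (51.0 to 80.0) and 35.7% (26.9 to 45.3) of cells at full depth, and in 24.4% (12.9 to 39.5) and 22.3% (14.996 to 31.2) at 1000 UMIs. These intervals overlapped that of the members at both depths. This thinning left out 5 control and 3 Cre members with fewer UMIs.

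The class II level of lymphatic cells in the Cre library was also the highest of the cell groups compared. Summed over the 4 genes it was 23.95 CPM (6.53 to 61.3) in control and 1340 CPM (1137 to 1568) in Cre members, and 60.6 CPM (16.5 to 155) and 1407 CPM (1181 to 1665) in endothelial-led members. Next came mesothelium, the serosal lining, at 51.5 and 735 CPM, and glia at 27.6 and 666 CPM. The Cre intervals of mesothelium (665 to 811) and glia (605 to 730) overlapped each other and lay below that of the lymphatic cells. A single Cre cell held 33 of the 155 class II UMIs of all members and of the 136 of endothelial-led members. In mesothelium a single cell held 73 of 398 and in glia 124 of 444. The intervals do not allow for such uneven cells, and the order of the groups was not tested. Smooth muscle stood at 14.0 and 71.5 CPM, fibroblasts at 19.4 and 67.6 CPM and interstitial cells of Cajal at 13.0 and 23.9 CPM. These groups were defined by markers detected in the same way, held 37 to 9895 control and 44 to 7803 Cre cells, and were counted outside the members. The 17 leukocyte genes together had 0 UMIs in control and 1 UMI in Cre endothelial-led members, and the part of free RNA in the class II level was not tested.

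**Figure D3:**
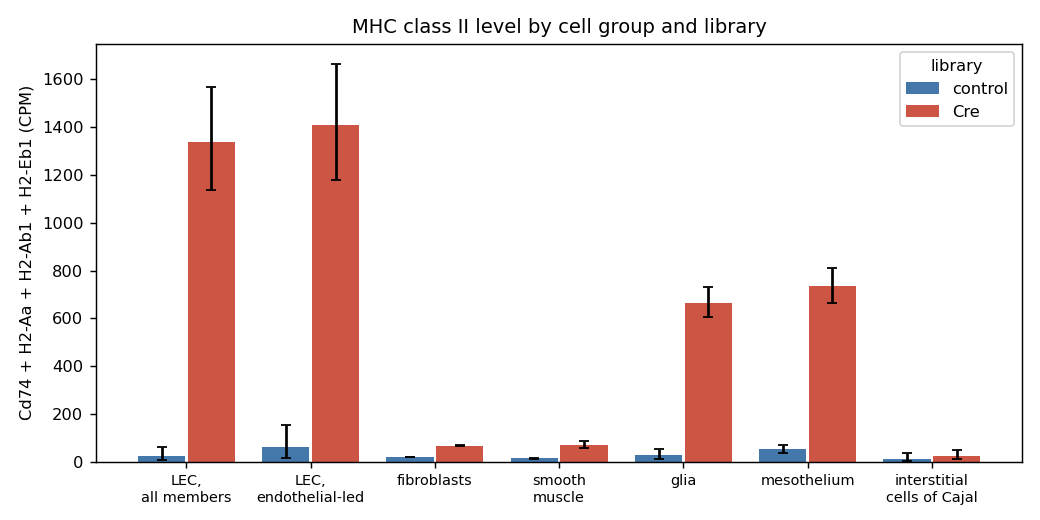
Summed CPM of Cd74, H2-Aa, H2-Ab1 and H2-Eb1 (vertical, from 0) by cell group and library, with exact 95% Poisson intervals as error bars that cover counting error only; LEC stands for lymphatic endothelial cells. In the Cre library all members stood at 1340 CPM, against 735 CPM in mesothelium, 666 CPM in glia and 67.6 CPM in fibroblasts.

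The promoters of these genes were examined for both elements named above, because many class II, class I and GTPase genes were among those higher in the Cre library. Promoter windows of 300 bases (250 before and 50 after the gene start) came from RefSeq on GRCm38.p6. The Y box was searched as CTGATTGG and the response element as GAAA, any 2 bases and GAAA again, on both strands; no promoter held overlapping matches of both. The Y box occurred in 4.10% and the response element in 3.44% of 32851 promoters. Of the 4 class II genes 2 were in the table and both held the Y box; Cd74 and H2-Ab1 had no entry. Of 16 class I genes in the table, 7 held the Y box, and all 7 (H2-D1, H2-K1, H2-Q6, H2-Q7, H2-T23, Psmb9 and Tap1) were among those counted higher over all members, as were 12 of the 16 in all. The response element was in 4 of these 16, and 3 of the 4 were higher (B2m, H2-T23 and Psme1). Of 11 interferon gamma and GTPase genes 6 held the response element (Gbp2, Gbp7, Igtp, Irgm1, Irgm2 and Tgtp2), and all 6 were higher. Of 14 type I interferon genes 7 did, and 4 of the 7 were higher, as were 6 of the 14 in all. Of 19 pan-endothelial genes 1 held the Y box and 1 the response element, and 0 of those with a match were higher. A match is a description of letters, not evidence of binding. The Y box match of H2-K1 lay after the gene start, and whether neighbouring genes shared a match was not examined. The 6 stretches of 80 bases below, picked after the values were seen, show 3 genes with each element in capitals, on the strand of the gene. They lie at chr17:34287844-34287923 (minus strand) for H2-Aa, chr17:34305767-34305846 for H2-Eb1, chr17:35262994-35263073 for H2-D1, chr2:122147507-122147586 for B2m, chr3:142620563-142620642 for Gbp2 and chr11:58199456-58199535 for Igtp, the last 5 on the plus strand.
H2-Aa: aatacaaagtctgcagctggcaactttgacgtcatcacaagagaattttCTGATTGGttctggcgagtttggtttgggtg
H2-Eb1: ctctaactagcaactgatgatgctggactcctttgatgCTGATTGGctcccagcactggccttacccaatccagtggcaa
H2-D1: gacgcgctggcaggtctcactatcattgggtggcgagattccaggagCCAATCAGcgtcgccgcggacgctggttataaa
B2m: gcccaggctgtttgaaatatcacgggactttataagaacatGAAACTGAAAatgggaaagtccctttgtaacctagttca
Gbp2: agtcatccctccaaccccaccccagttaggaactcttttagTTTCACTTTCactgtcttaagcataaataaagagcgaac
Igtp: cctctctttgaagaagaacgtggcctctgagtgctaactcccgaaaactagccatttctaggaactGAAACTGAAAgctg

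The Y box began 51 bases before the gene start in H2-Aa and 62 bases before it in H2-Eb1, the pair of class II genes with an entry. In H2-D1 and Gbp2 the capitals read as the reverse complement of the searched letters. The B2m stretch begins 180 bases before the start and the other stretches 100 bases before it.

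MHC class I genes were higher as a group in the Cre library. Over all members 14 of 18 measured genes passed the 2-fold line upwards and none downwards, and the median log2 ratio was 1.67. In endothelial-led members the count was 13 of 15 with a median of 1.39. The same genes in fibroblasts gave 12 of 18 (1.49) and 10 of 15 (1.54), while of all genes measured in the 2 sets of members 1.48% and 1.7% were 2-fold higher and 0.362% and 0.528% 2-fold lower in fibroblasts. The class I genes were thus higher in both cell types, and no difference between the cell types was tested.

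The heavy chain gene H2-K1 had 56 UMIs (848 CPM) in control and 201 UMIs (2080 CPM) in Cre endothelial-led members, a 2.45-fold ratio (1.82 to 3.36), and a 3.83-fold ratio (3.02 to 4.90) over all members. H2-D1, another classical heavy chain, had 83 and 306 UMIs, a 2.52-fold ratio (1.97 to 3.25), and B2m, the shared light chain, 62 and 240 UMIs, a 2.65-fold ratio (1.99 to 3.56). All 3 ratios were larger in fibroblasts, at 4.56, 3.61 and 3.56. The non-classical genes H2-Q6 (5 and 57 UMIs, 7.79-fold) and H2-Q7 (4 and 45 UMIs, 7.69-fold) stood further apart in endothelial-led members, at 18.2-fold and 13.0-fold over all members, and further still in fibroblasts (62.4-fold and 35.1-fold). Their near-identical sequences can share reads, so that the split between them is uncertain. Of the peptide supply genes, the transporter gene Tap1 had 1 and 23 UMIs, a 15.7-fold ratio (2.55 to 647; over all members 8.66, 2.98 to 34.3), and the immunoproteasome gene Psmb8 3 and 21 UMIs, a 4.78-fold ratio. Calr, the chaperone calreticulin, was among the genes below 2-fold, at 1.24.

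Interferon gamma targets and the immunity-related GTPases were counted on a list of their own, which also held Cd74. Over all members 11 of 17 measured genes were 2-fold higher (median log2 ratio 1.43) and in endothelial-led members 6 of 9 (1.48). Of the same genes 12 of 17 and 6 of 9 were 2-fold higher in fibroblasts, with medians of 1.24 in both gene sets. Iigp1, a GTPase that attacks the vacuoles of intracellular parasites, had 2 UMIs (2 cells) in control and 53 UMIs (15 cells) in Cre endothelial-led members, an 18.1-fold ratio (4.77 to 153), against 8.90-fold in fibroblasts. The guanylate-binding protein genes Gbp2 (2 and 22 UMIs, 7.52-fold) and Gbp4 (3 and 28 UMIs, 6.38-fold, and 11.9-fold over all members) were higher as well. Irf1, a transcription factor downstream of interferon gamma, had 11 and 24 UMIs, a 1.49-fold ratio below the 2-fold line.

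Type I interferon response genes were higher in part. Of this list 9 of 20 measured genes over all members were 2-fold higher (median log2 ratio 0.89), against 5 of 20 (0.75) in fibroblasts. In endothelial-led members 3 of 14 were higher (0.31), against 4 of 14 (0.85) in fibroblasts. Among them were Xaf1, an apoptosis regulator (2 and 24 UMIs, 8.20-fold), and Slfn5, of the Schlafen family (5 and 16 UMIs, 2.19-fold, 0.765 to 7.63). The restriction factor gene Ifitm3 had 184 and 319 UMIs in endothelial-led members, a ratio of 1.18 with an interval (0.985 to 1.43) that included equality, against 1.75 in fibroblasts. Over all members its ratio was 1.77 (1.53 to 2.04). Isg15, the ubiquitin-like modifier, had 4 and 11 UMIs in endothelial-led members, too few to be measured, and 18 and 27 UMIs over all members, a ratio of 2.17 (1.15 to 4.17). The values over all members include the 2 mixed Cre cells, which held 438 and 132 UMIs of this list. No endothelial-led Cre member held more than 80, but the 2 mixed cells were also deep, at 12701 and 6343 UMIs. The genes measured differed between the sets of members, and the difference between the counts was not tested.

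**Figure D4:**
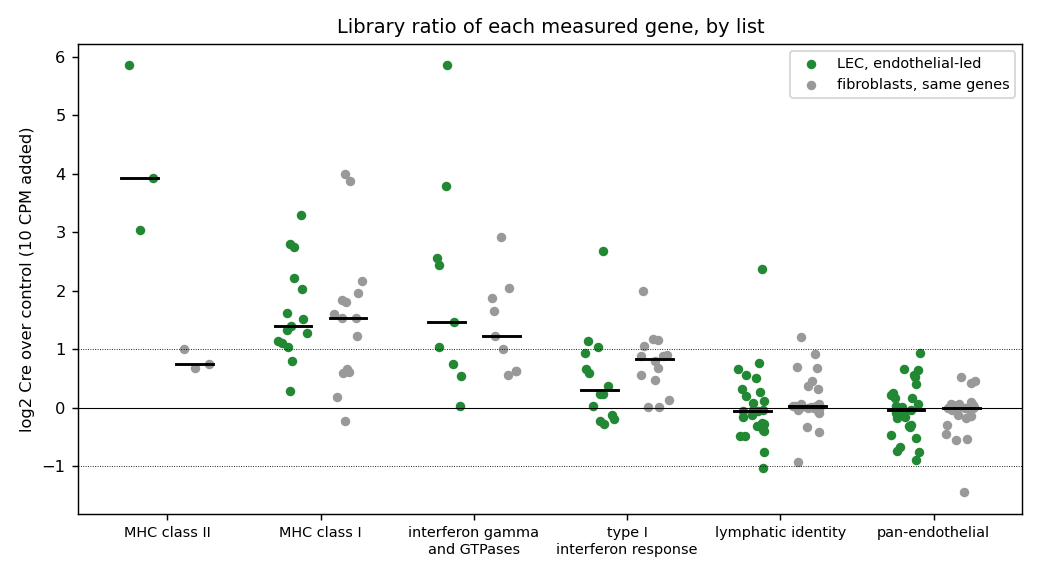
Log2 ratio of Cre over control (vertical, 10 CPM added) for each gene measured in endothelial-led members (LEC), by gene list, with the same genes in fibroblasts in grey, bars at the medians and dotted lines at 2-fold. The medians in lymphatic cells were 3.93 for class II, 1.39 for class I, 1.48 for interferon gamma and GTPases, 0.31 for type I interferon and -0.05 for lymphatic identity.

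Cell by cell, each cell with at least 2000 UMIs was thinned to 2000, which left out 22 control and 14 Cre endothelial-led members. The lowest, median and highest class I UMIs were 2, 10 and 21 in the 13 control endothelial-led members left. In the 26 Cre ones they were 5, 27 and 41. The ranges overlapped, while the Cre median lay above the highest control cell. Type I interferon list UMIs were 8, 13 and 40 in the control and 10, 19 and 52 in the Cre cells, with ranges that overlapped almost entirely. Fibroblasts had medians of 6 and 17 for class I and of 15 and 24 for type I interferon. Over all members the medians were 8 and 27 for class I, in 23 and 28 cells, and 13 and 19.5 for type I interferon.

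**Figure D5:**
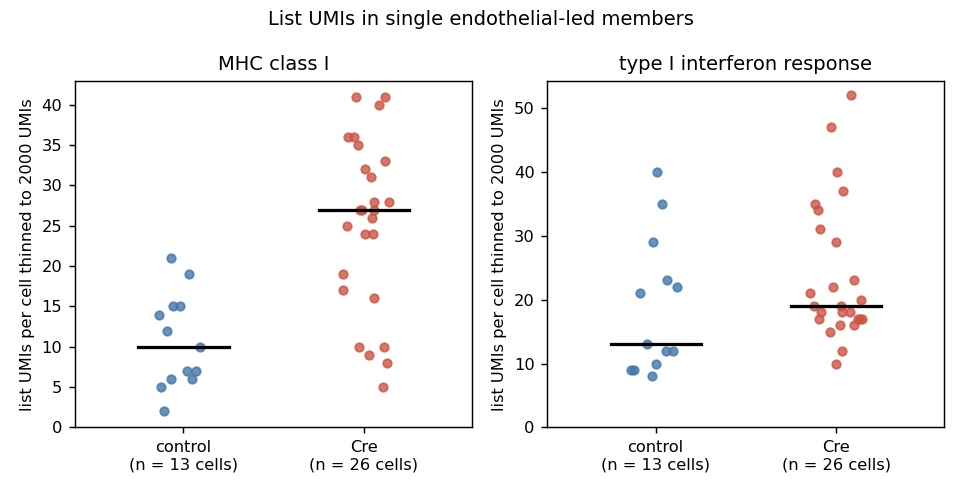
UMIs of the class I list (left) and the type I interferon list (right) in each endothelial-led member thinned to 2000 UMIs, with bars at the medians. Shown are 13 control and 26 Cre cells, and 22 control and 14 Cre cells with fewer UMIs are left out. The class I medians were 10 and 27, and the type I interferon medians 13 and 19 with ranges of 8 to 40 and 10 to 52.

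Identity genes did not separate the libraries in the endothelial-led members. In both libraries these cells had been chosen by lymphatic markers and by their pan-endothelial UMIs. Like levels of identity genes could follow from that choice, which was not tested. Of 25 measured lymphatic identity genes 1 (Nts) was 2-fold higher and 1 (Klhl4) 2-fold lower, with a median log2 ratio of -0.05, and of 28 pan-endothelial genes none was 2-fold apart in either direction. Over all members the identity median was 0.42, with 4 of 25 genes higher; the mixed cells left out of the first median held 60.5% of control and 16.5% of Cre member UMIs. Ccl21a had a ratio of 1.42 (1.33 to 1.51) in endothelial-led members and of 2.51 (2.37 to 2.66) over all, and 1 Cre cell held 18.9% of its UMIs in the former. Nts, which encodes the peptide neurotensin, had 8 UMIs (2 cells) in control and 65 UMIs (17 cells) in Cre endothelial-led members, a 5.55-fold ratio (2.66 to 13.4). For Nts 1 Cre cell held 35.4% of the UMIs and 1 control cell 62.5%. Klhl4, a kelch-family gene, had 45 and 32 UMIs, a ratio of 0.486 (0.299 to 0.782), but 0.836 (0.527 to 1.31) over all members.

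Inflammatory genes were higher in part in the Cre library. Of this list 5 of 11 measured genes over all members and 4 of 7 in endothelial-led members were 2-fold higher, with medians of 0.55 and 1.34. Nfkbia, which encodes an inhibitor of NF-kB, had 8 and 45 UMIs in endothelial-led members, a 3.84-fold ratio (1.79 to 9.44), and Serpina3n, a protease inhibitor of the acute phase, 2 and 24 UMIs, an 8.20-fold ratio (2.04 to 71.6). Over all members these ratios were 2.20 (1.56 to 3.13) and 3.10 (1.79 to 5.57). Lcn2, the iron-sequestering protein lipocalin 2, marked lymphatic cells in both libraries, at 591 and 1014 CPM in endothelial-led members, a 1.72-fold ratio (1.17 to 2.56), and at 263 and 864 CPM over all members, a 3.28-fold ratio (2.28 to 4.79). In fibroblasts it stood at 0.073 and 9.01 CPM.

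Interferon receptor genes that could be measured were not 2-fold apart between the libraries in either set of members. Ifnar2, a chain of the type I interferon receptor, had 19 and 23 UMIs in endothelial-led members. Il10rb, the shared chain of the IL-10 receptor, had 3 and 6 UMIs. Of the IL-10 signalling list 1 of 3 measured genes was 2-fold higher in endothelial-led members, the feedback inhibitor Socs3 with 3 and 23 UMIs (5.24-fold), while over all members none of 6 was and Socs3 had 75 and 44 UMIs (0.847). Stat3, the transducer of IL-10 signals, had a ratio of 0.729 (0.429 to 1.24) in endothelial-led members.

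Which genes were lowest in the Cre library depended on the mixed members. At least 2-fold lower were 239 of 3035 measured genes (7.87%) over all members and 91 of 1705 (5.34%) in endothelial-led members. Over all members the lowest ratios were of the lamina propria fibroblast gene Edil3 (74 and 0 UMIs), the contractile genes Tagln (104 and 1 UMIs) and Tpm2 (54 and 0 UMIs) and the fibroblast gene Adamdec1 (118 and 2 UMIs). In endothelial-led members Tagln had 1 and 1 UMIs and Adamdec1 4 and 1. Fibroblast markers were 2-fold lower for 8 of 13 measured genes over all members, with a median log2 ratio of -1.43, and 1 of them remained measured in endothelial-led members. In the latter the lowest ratios belonged to Sgcd, a sarcoglycan gene (23 and 7 UMIs, ratio 0.208, 0.0754 to 0.501), and Gna12, a G protein subunit gene (15 and 5 UMIs, ratio 0.228, 0.0648 to 0.659, and 0.346 over all members). Matrix and basement membrane genes were 2-fold lower for 8 of 27 measured genes over all members and for 0 of 18 in endothelial-led members.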

How the data were processed

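The authors deposited, for each library, a matrix of raw UMI counts per gene and barcode. The submitters' processing notes name GRCm39 as the build and Cell Ranger (version 8.0.1) as the tool; per the labels' protocols the libraries were made with a 5' kit. The 2 matrices held 11380 control and 8627 Cre barcodes, 76570611 and 66845139 UMIs and 33696 features; where a symbol recurred (26 rows) its first row stood for it. A barcode was kept with 500 genes or more and with mitochondrial UMIs at 10% or less. The libraries shared 115 barcode sequences, 2 of them in members. Scrublet (scanpy 1.11.5, expected rate 8%) called 371 (3.36%) control and 140 (1.66%) Cre cells doublets, which were kept and removed only in an alternative.

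Members and gene lists were chosen with earlier results of these data known. UMIs were summed per group and scaled to CPM with numpy 2.4.6. Counts of genes are by size (4-fold in both libraries, or 2-fold between libraries, 10 CPM added), not by a test. Intervals are Clopper-Pearson for shares, exact Poisson for levels and exact binomial for ratios (scipy 1.17.1). Named genes were members of the lists, the 20 highest against other cells and the 12 highest and 12 lowest between libraries, leaving out the 6 rule markers, predicted, mitochondrial, ribosomal, immunoglobulin, haemoglobin and sex-linked genes. In these, 2 listed genes had no row. Per-sample columns left unused numbered 0. Other fibroblast, smooth muscle, glial, mesothelial and Cajal cells were kept cells with at least 3 markers of 1 type. The scripts were tested on simulated data. Gene positions were taken from RefSeq on GRCm38.p6, not the build of the counts.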

Additional observations from a re-analysis of the deposited data

Results flagged for a closer look

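Genes measured in both sets of members and in fibroblasts were searched for ratios at least 2-fold apart in opposite directions between members and fibroblasts. In endothelial-led members 85 of 1705 genes were 2-fold higher and 91 lower, and in fibroblasts 29 and 9 of these. Plk2, which encodes a stress-responsive polo-like kinase, was the only gene the search found. Its log2 ratio of Cre over control was 1.23 over all members (15 and 26 UMIs, 89.8 and 225 CPM) and 1.27 in endothelial-led members (7 and 26 UMIs), and -1.26 in fibroblasts (145 and 55.1 CPM). The ratio in endothelial-led members was 2.54 with a counting interval of 1.07 to 6.93. That interval does not allow for the search over genes, and the ratio itself had selected Plk2. With 1 library per genotype the difference between the cell types was not tested.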

How the results depend on the processing

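Over the alternatives run, no list median or gene among those recomputed that stood at least 2-fold apart over all members changed sign; the fibroblast list, at -1.43 over all members, kept only 1 measured gene in endothelial-led members (0.55) and was not among them. Below that size, the pan-endothelial median went from 0.43 to -0.04 in endothelial-led members, and log2 ratios of single genes crossed 0: Socs3 ranged from -0.93 to 2.16, Cldn5 from -0.33 to 0.66, Rspo3 from -0.27 to 0.71. Of 146 alternative values of the principal results 25 moved past the limit set for them. The count of genes higher in members than in other cells, 246, became 134 with a minimum of 50 UMIs. The count of lower genes, 22, was 62 with called doublets removed, 36 with at least 4 markers, 50 with at least 2 of Prox1, Mmrn1 and Flt4, 223 without members led by the fibroblast list, 232 in endothelial-led members, 186 with the mean CPM per cell, 37 with 1 CPM added, 9 with at least 50 UMIs and 41 without the deepest member of each library. Between libraries, the 139 genes higher in Cre became 80 without members led by the fibroblast list, 85 in endothelial-led members, 35, 358 and 1115 with at least 50 UMIs, at least 10 UMIs and no minimum. The 239 lower genes became 110 with called doublets removed, 99 and 91 in the same 2 restricted sets, and 60, 585 and 1864 with the same 3 minimums.

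The lymphatic identity median of 0.42 was -0.048 in endothelial-led members. The difference in median class I UMIs per cell over all members was 8 at 1000 UMIs kept, with medians of 4 in control and 12 in Cre. At 2000 UMIs kept these medians were 8 and 27. Keeping fewer UMIs lowers such counts by design, so the differences at the 2 depths cannot be compared. At 2000 UMIs kept, Ccl21a was detected in 100% of Cre and Nts in 0% of control members, but this left out 23 control and 14 Cre members with fewer UMIs, among them control cells that held Nts. Over the alternatives run the log2 ratio of H2-K1 lay between 1.28 and 1.94 and that of B2m between 1.39 and 1.70. No paired analysis was possible because each genotype had 1 library. Members were few and shallow, which limits what can be said of genes with few UMIs such as Foxc2.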
